A study of Mus musculus with 6 samples.

Results

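The genes described are 10 members of the NRF2 and antioxidant system of the mouse, taken by their symbols in GENCODE M21 from the 55450 genes counted in each library. They are Nfe2l2, Keap1, Hmox1, Nqo1, Gclc, Gclm, Gsr, Srxn1, Sod2 and Cat, and each symbol matched 1 Ensembl gene. RNA selected for long fragments from whole brain was sequenced in 3 libraries of TRMT1L knockout mice (KO) and 3 of wild-type mice (WT), which the study calls biological triplicates, to ask what loss of this tRNA methyltransferase-like protein does to brain RNA. The labels give no strain, sex, age, allele design or sequencing batch, and nothing beyond the word biological says that each library is 1 animal, so p-values measure the spread between these libraries.

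Counts in genes on the strand used ranged from 31201119 to 36145961 per library. The genotypes separated on library composition: reads that overlapped no exon on the counted strand were 50.3% to 52.2% of mapped reads in WT and 48.6% to 49.8% in KO, and multimapping reads were 4.61% to 5.16% and 5.25% to 5.60%. The part of this difference in the values below was not tested. Counts of Trmt1l, the targeted gene, lay between 1034 and 1279 in WT and between 93 and 106 in KO (log2 fold change -3.58, SE 0.0813, edgeR adjusted p = 6.95e-10). All 8 neuron markers on a fixed list, among them Snap25 and Syt1, were tested and summed to between 4435 and 4711 CPM (counts scaled to library size with TMM factors).

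NRF2, the product of Nfe2l2, is a transcription factor that is made continuously and destroyed continuously. KEAP1 holds it in the cytoplasm and hands it to a CUL3 ubiquitin ligase, and oxidants or electrophiles that modify KEAP1 cysteines let NRF2 escape, pair with small MAF proteins and bind antioxidant response elements. Its targets make glutathione, repair peroxiredoxins, reduce quinones and break down heme. In brain this programme is known mainly from astrocytes and microglia, and because much of its control acts on NRF2 protein, its target RNAs are the usual readout.

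The antioxidant response element is short, and the promoter stretches that hold a match are shown so its position can be read beside the values. RefSeq windows (GRCm38.p6, 250 bases before to 50 after the start site) were matched for 7 of the 10 genes: Nfe2l2, Keap1, Nqo1, Gclm, Srxn1, Sod2 and Cat. The entries for Hmox1, Gclc and Gsr are named only. Each window was searched on both strands for TGACNNNGC, the core letters of the antioxidant response element, and for TGAGNNNGC, the same core with G in the fourth place. Matches lay in 3 of the 7 windows. Sites outside these windows were not searched. Capitals mark the match, negative positions count bases before the start site, and all lines read 5′ to 3′ along the gene.
Nfe2l2, match starting at -240, chr2:75704870-75704913, minus strand: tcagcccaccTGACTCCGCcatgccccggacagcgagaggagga
Gclm, match to the reverse complement starting at -134, chr3:122245398-122245456, plus strand: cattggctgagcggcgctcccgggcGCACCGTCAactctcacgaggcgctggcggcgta
Srxn1, match to the reverse complement starting at -158, chr2:152105341-152105399, plus strand: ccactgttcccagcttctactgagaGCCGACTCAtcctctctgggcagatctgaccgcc
Srxn1, match starting at -45, chr2:152105454-152105512, plus strand: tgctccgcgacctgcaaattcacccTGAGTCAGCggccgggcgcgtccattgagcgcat
Srxn1 held a further match 29 bases after the start site. Among all 32851 RefSeq windows, 12.4% held TGACNNNGC, 17.6% held TGAGNNNGC and 27.8% held at least 1 of them. The 4566 tested genes with a match had a median log2 fold change, KO over WT, of 0.0102, and the 8391 without one had 0.0121.

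None of the 10 genes passed the threshold of 0.05 for a difference between KO and WT brain, with edgeR p-values adjusted over all 21237 genes tested. All 10 passed the filter on low counts. The estimates were small for 8 of them, between 0.902-fold for Gclm and 1.09-fold for Keap1, while Nqo1 stood at 1.13-fold and Hmox1 at 1.71-fold, the last resting on KO library 3. At that threshold 0.00942% of all genes tested were called. Only Gclm of the 10 had an unadjusted p-value under 0.05 in edgeR, and the same single gene did in DESeq2, where 7.92% of all genes tested did so in edgeR. That count ranged from 0 to 3 of the 10 when 1 library was left out. The groups did not overlap for Gclc and Gclm, both lower in KO, which is 2 of 10 where 6.97% of all genes tested were separated with KO below and 14.4% in either direction. The median log2 fold change was 0.039 over the 10 genes and 1.33e-04 over all genes tested, and without KO library 3 the median of the 10 was 6.00e-04. In total, 7 of the 10 estimates were above 0, as were 50.1% over all genes.

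**Figure D1:**
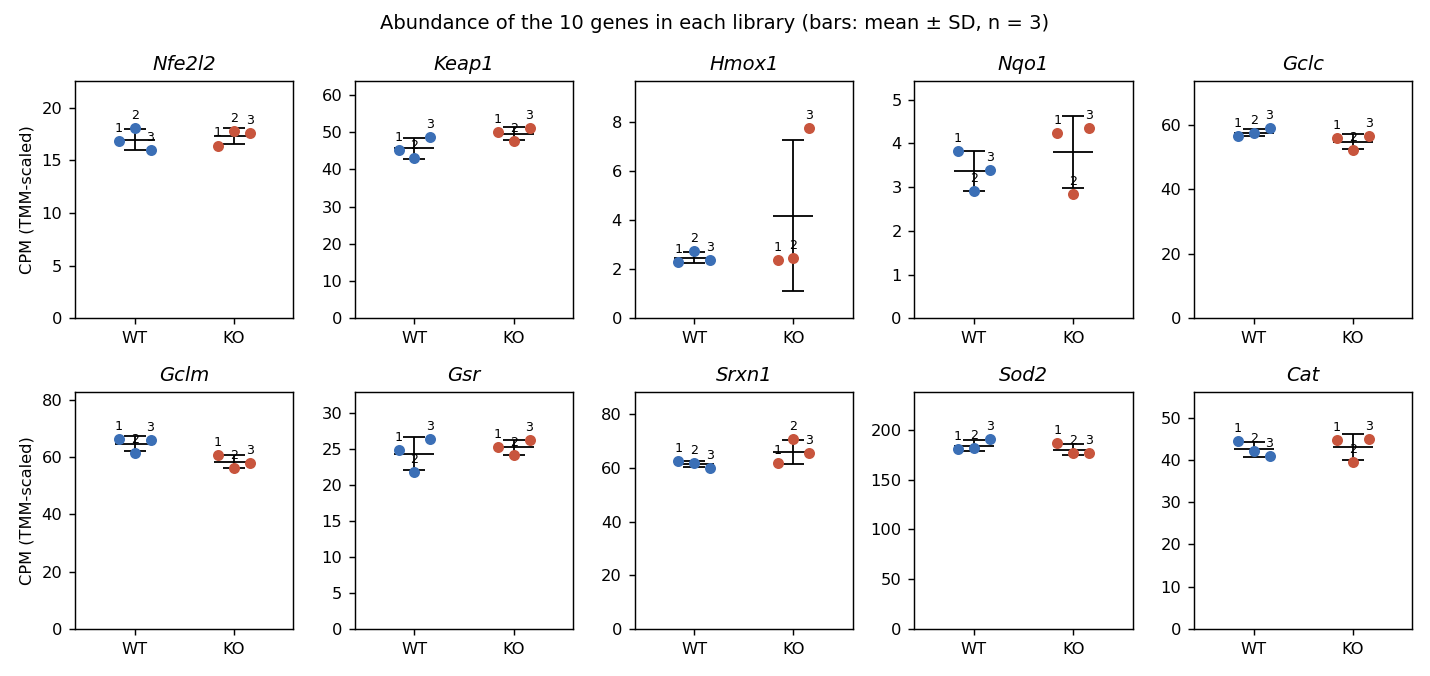
Abundance of each gene in CPM (vertical axis, from 0) in the 3 WT and 3 KO libraries, with the library number above each point and bars for the mean ± SD (n = 3). Hmox1 stands at 7.75 CPM in KO library 3 and at 2.31 to 2.74 CPM in the other 5 libraries, and Gclc and Gclm are the genes whose groups do not overlap.

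The regulators came first. Nfe2l2 (ENSMUSG00000015839.6, chromosome 2 from 75675513 to 75704641, minus strand, GRCm38) had 16.9, 18.0 and 16.01 CPM in WT libraries 1 to 3 and 16.4, 17.8 and 17.6 CPM in KO libraries 1 to 3. The groups overlapped fully, with the highest and the lowest value both in WT. Its KO over WT ratio was 1.02 with a 95% interval from 0.911 to 1.14 (log2 fold change 0.027, SE 0.0736, edgeR adjusted p = 0.949). Without WT library 3 the log2 value was -0.0117. NRF2 protein was not measured.

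Keap1 (ENSMUSG00000003308.15, chromosome 9 from 21229730 to 21239361, minus strand), the adaptor that presents NRF2 for degradation, had 45.4, 43.1 and 48.7 CPM in WT and 50.2, 47.6 and 51.0 CPM in KO. KO libraries 1 and 3 lay above every WT library and KO library 2 did not. The ratio was 1.09 with an interval from 0.992 to 1.19 (log2 fold change 0.12, SE 0.0594, edgeR adjusted p = 0.651). With a correction for GC content the log2 value was 0.034. Leaving out 1 library gave 0.078 (without WT library 2) to 0.17 (without WT library 3). An antisense gene, Gm16754, overlaps 510 exonic bases of Keap1, and counting without regard to strand gave Keap1 6424 reads over the 6 libraries in place of 9796. The ratio of Nfe2l2 to Keap1 in RPKM (CPM per kb of exon) was 0.461 ± 0.0554 in WT and 0.431 ± 0.0296 in KO (SD, n = 3), with overlapping groups.

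Hmox1 gave the largest difference, and 1 library made it. Hmox1 (ENSMUSG00000005413.8, chromosome 8 from 75093621 to 75100589, plus strand) encodes the inducible heme oxygenase, which opens heme into biliverdin, iron and carbon monoxide. Its counts were 84, 86 and 78 in WT and 82, 83 and 280 in KO. In CPM these were 2.31, 2.74 and 2.37 in WT and 2.36, 2.47 and 7.75 in KO. KO libraries 1 and 2 lay inside the WT range, and KO library 3 stood at 2.82 times the highest other library. The log2 fold change was 0.77 (SE 0.385, ratio 1.71, 95% interval 0.951 to 3.06, edgeR adjusted p = 0.649). Without KO library 3 it was -0.033, and without KO library 1 it was 1.05. When low counts were not filtered the adjusted p-value was 6.48e-04, in a fit that gave no gene a spread of its own.

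**Figure D2:**
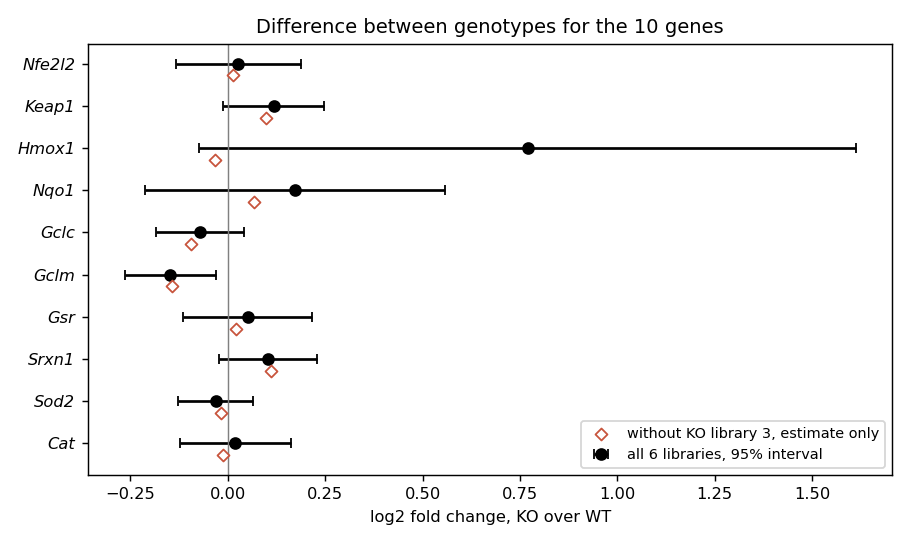
Log2 fold change, KO over WT (horizontal axis), of each gene in all 6 libraries with its 95% interval (black) and the estimate without KO library 3 (open diamonds). The Hmox1 estimate moves from 0.77 to -0.033, and the interval of Gclm, not adjusted for the number of genes, lies wholly below 0.

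Other genes were highest in the same library. Among the 17301 genes with a mean of at least 1 CPM, 7 stood in KO library 3 at 2 times or more the highest other library, against 0, 9, 1, 1 and 4 genes in KO libraries 1 and 2 and WT libraries 1, 2 and 3. Hmox1 ranked second by that ratio, behind Gpnmb at 3.57 times, and the first 9 places also held Trp53cor1 and Gm42047. The genes named in this paragraph were taken for their values in KO library 3, so they are described and not tested. Gpnmb, a glycoprotein of phagocytic macrophages and microglia, had at most 4 CPM in the other 5 libraries and 14.3 CPM in KO library 3. Itgax, an integrin of activated microglia and dendritic cells, had 0.238 to 1.37 CPM elsewhere and 3.49 CPM there. Lgals3, a galectin of the same cells, had 0.608 to 1.21 CPM elsewhere and 2.60 CPM there. Itgax and Lgals3, both among the 7, reached the mean of 1 CPM only through KO library 3. Slc1a5, a neutral amino acid transporter, had 1.63 to 2.88 CPM elsewhere and 6.11 CPM there. The stress-response factors Nupr1 and Atf5 stood at 7.75 and 21.7 CPM there, against at most 3.91 and 11.2 CPM elsewhere. Gfap, the intermediate filament of astrocytes, had 115 to 140 CPM elsewhere and 248 CPM there. The fixed list of 9 astrocyte markers, of which Gfap is 1, was summed at 5353 to 5522 CPM elsewhere and was lowest there at 5147 CPM, a sum made mostly of Slc1a2. Gfap, Aldh1l1 and Slc1a3 were highest there, and Aqp4 and S100b were among those lowest there.

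Marker lists of other cell types also varied between the libraries. The summed level of 10 microglia markers was 248.5 to 310.1 CPM in WT and 245 to 301 CPM in KO, with KO library 3 at 301 CPM the highest KO library and inside the WT range, and all 10 markers were detected. Of these, 5 of 10 were highest in KO library 3, against 18.7% of all genes tested, and over all libraries 5 had a log2 fold change above 0 and 5 below. The marker with the smallest p-value, P2ry12, a receptor of resting microglia, was singled out after its values were seen. It had 26.3, 27.0 and 27.4 CPM in WT and 22.9, 19.0 and 21.9 CPM in KO (edgeR adjusted p = 0.550). The 5 border macrophage markers summed to 14.4 to 15.8 CPM in WT and 13.9 to 16.2 CPM in KO, with KO library 3 at 14.8 CPM. Red blood cell markers summed to 109 to 149 CPM in WT and to 248, 98.3 and 181 CPM in KO libraries 1 to 3. The 10 endothelial and mural cell markers summed to 404 to 422 CPM in WT and to 407, 389 and 429 CPM in KO libraries 1 to 3, the highest sum being that of KO library 3, where 6 of the 10 (60.0%) were highest. Meningeal fibroblast markers summed to 77.9 to 89.7 CPM in WT and 70.9 to 88.5 CPM in KO, with KO library 3 at 88.5 CPM and 2 of 6 separated with KO below WT, against 6.97% of all genes tested. Oligodendrocyte markers summed to 4160 to 4591 CPM in WT and to 4292, 3936 and 3591 CPM in KO libraries 1 to 3. Of these, 7 of 8 had a log2 fold change below 0, where 50.1% of all genes tested were above 0. Choroid plexus markers summed to 325 to 380 CPM in WT and 384 to 460 CPM in KO, with KO library 3 the lowest of the KO libraries. Their log2 fold change was above 0 for 8 of 8. The groups separated for 3 of the 8 with KO above WT, against 7.46% of all genes tested. In bulk tissue, fewer cells of a type and less RNA per cell cannot be told apart. The part of any of these cell types in the Hmox1 value was not tested.

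**Figure D3:**
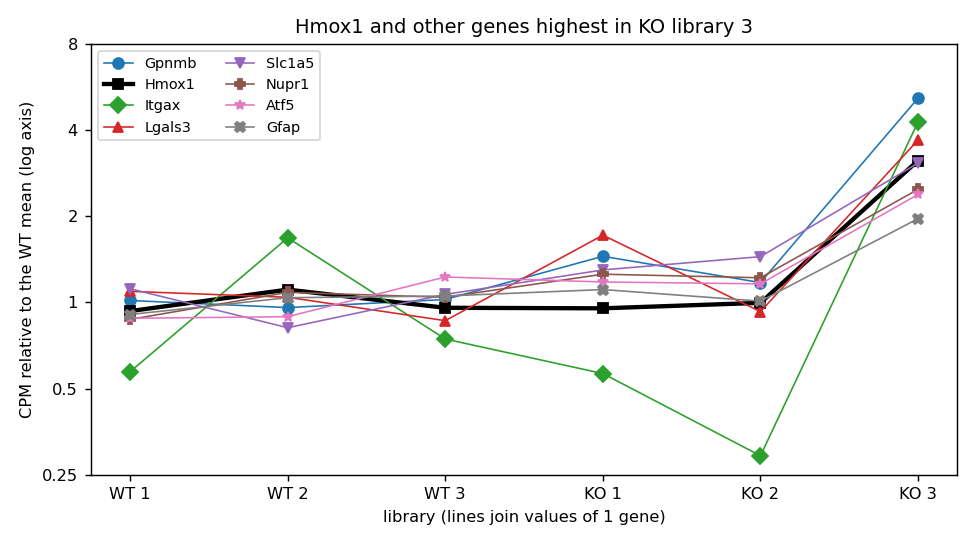
CPM of Hmox1 (thick line) and of 7 other genes chosen after their values were seen, divided by each gene's mean over the WT libraries (vertical log axis), in the 6 libraries. All 8 genes are highest in KO library 3, where Hmox1 reached 7.75 CPM and Gpnmb 14.3 CPM, and the lines only join values of a gene.

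Bach1, the repressor that occupies the Hmox1 enhancers until heme displaces it, and Hmox2, the constitutive heme oxygenase, were chosen here after their values were seen. Bach1 had 21.5, 21.2 and 20.7 CPM in WT and 21.8, 21.7 and 21.7 CPM in KO, without overlap but close together (log2 fold change 0.040, SE 0.0597, edgeR adjusted p = 0.890). For Hmox2 the mean was 45.8 ± 1.79 CPM over the WT libraries and 43.7 ± 2.12 CPM over the KO libraries, with overlapping groups.

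Nqo1 (ENSMUSG00000003849.8, chromosome 8 from 107388225 to 107403206, minus strand) encodes the quinone reductase that is the classical marker of NRF2 activity. Its counts were the lowest of the 10 after those of Hmox1, from 91 to 157 per library. It had 3.82, 2.90 and 3.40 CPM in WT and 4.23, 2.85 and 4.34 CPM in KO. KO libraries 1 and 3 were above all WT libraries and KO library 2 was below them all. The ratio was 1.13 with an interval from 0.863 to 1.47 (log2 fold change 0.17, SE 0.176, edgeR adjusted p = 0.829). Leaving out KO library 3 gave 0.067 and leaving out KO library 2 gave 0.34.

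Srxn1 (ENSMUSG00000032802.8, chromosome 2 from 152105516 to 152111376, plus strand) encodes sulfiredoxin, which restores overoxidized peroxiredoxins, and its promoter carried the matches printed above. It had 62.4, 61.9 and 60.1 CPM in WT and 61.9, 70.8 and 65.5 CPM in KO. KO libraries 2 and 3 lay above the WT range and KO library 1 within it. The ratio was 1.07 with an interval from 0.985 to 1.17 (log2 fold change 0.10, SE 0.0570, edgeR adjusted p = 0.678). The log2 value was 0.051 without KO library 2 and 0.059 with GC correction. Hmox1 and Srxn1 were thus highest in different KO libraries.

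Gclm and Gclc were the genes of the 10 whose groups separated, both with KO below WT and neither past the threshold. Gclm (ENSMUSG00000028124.15, chromosome 3 from 122245557 to 122270732, plus strand) encodes the modifier subunit of glutamate-cysteine ligase, the enzyme that sets the pace of glutathione synthesis. It had 66.2, 61.5 and 65.9 CPM in WT and 60.6, 56.1 and 58.0 CPM in KO, every KO library below every WT library. The ratio was 0.902 with an interval from 0.832 to 0.978 (log2 fold change -0.15, SE 0.0533, edgeR adjusted p = 0.579). With a correction for GC content it was -0.10, and the unadjusted p-value was then above 0.05. A processed pseudogene on the same strand, Gm6061, shares 244 exonic bases with Gclm, and reads that fit both are left uncounted by STAR. The pseudogene took 8 to 23 counts per library of its own.

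Gclc (ENSMUSG00000032350.9, chromosome 9 from 77754535 to 77794485, plus strand), the catalytic subunit, had 56.6, 57.5 and 59.0 CPM in WT and 55.9, 52.2 and 56.5 CPM in KO. The groups did not overlap, but by a margin of less than 1 CPM between KO library 3 and WT library 1. The ratio was 0.952 with an interval from 0.879 to 1.03 (log2 fold change -0.072, SE 0.0521, edgeR adjusted p = 0.762). The RPKM ratio of Gclm to Gclc was 0.670 ± 0.0295 in WT and 0.636 ± 0.0191 in KO (SD, n = 3), and the groups overlapped.

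Gsr (ENSMUSG00000031584.16, chromosome 8 from 33652523 to 33698163, plus strand) encodes glutathione reductase, which turns the oxidized disulfide back into glutathione. It had 24.8, 21.9 and 26.4 CPM in WT and 25.3, 24.1 and 26.3 CPM in KO, and the KO values all lay within the WT range. The ratio was 1.04 with an interval from 0.924 to 1.16 (log2 fold change 0.051, SE 0.0757, edgeR adjusted p = 0.890). Without WT library 2 the log2 value was -0.0187.

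Sod2 and Cat remove superoxide and hydrogen peroxide. Sod2 (ENSMUSG00000006818.5, chromosome 17 from 13006846 to 13040063, plus strand), the manganese superoxide dismutase of mitochondria, had 180, 181 and 191 CPM in WT and 187, 177 and 177 CPM in KO. The groups overlapped through KO library 1. With 5679 to 6565 counts per library it was the most deeply counted of the 10, and its ratio of 0.978 had the narrowest interval, 0.915 to 1.05 (log2 fold change -0.031, SE 0.0443, edgeR adjusted p = 0.883). The log2 value was 0.016 with GC correction and, with 1 library left out, ranged from -0.059 (without KO library 1) to -0.0048 (without WT library 3). Cat (ENSMUSG00000027187.10, chromosome 2 from 103453849 to 103485160, minus strand), the peroxisomal catalase, had 44.5, 42.1 and 40.8 CPM in WT and 44.8, 39.5 and 44.9 CPM in KO, with overlapping groups. Its ratio was 1.01 with an interval from 0.919 to 1.12 (log2 fold change 0.020, SE 0.0646, edgeR adjusted p = 0.961). The log2 value of Cat was below 0 without WT library 3 (-0.00713), KO library 1 (-0.0111) or KO library 3 (-0.0116).

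Spread within groups can be set beside counting error. Counting error alone, at each group's mean count, gives a coefficient of variation of 1.27% and 1.26% for Sod2 in WT and KO, and the observed values were 3.05% and 3.10%. For Srxn1 counting error was 2.20% and 2.09%, and the observed values were 1.98% and 6.75%. Hmox1 varied by 9.51% in WT, where counting error is 11%, and by 73.5% in KO, where it is 8.21%.

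Levels were compared between genes per length, as the mean RPKM over the 6 libraries with its SD. Srxn1 was first at 22.6 ± 1.37, followed by Sod2 at 18.2 ± 0.545 and Cat at 16.4 ± 0.892. Gclc stood at 14.9 ± 0.602 and overlapped Cat in its range over libraries. Keap1 at 10.2 ± 0.640, Gclm at 9.76 ± 0.648 and Gsr at 9.01 ± 0.606 formed a run in which each overlapped the next. Nfe2l2 was below them without overlap at 4.51 ± 0.216, and Nqo1 (2.31 ± 0.416) and Hmox1 (1.903 ± 1.24) were lowest and overlapped each other. The order depends on the length used: with the longest coding transcript in place of all annotated exons, a choice made after the data were seen, Sod2 was first at 31.1 RPKM and Srxn1 second at 22.7, while the last 6 places were held by the same genes in the same order. So Hmox1 and Nqo1, both known for their inducibility, had the lowest means of the 10 in these brains under both lengths.

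The wider system was read from 5 lists of other genes. None of their genes passed the adjusted threshold in the main edgeR fit. None did in limma-voom, or in DESeq2 where it gave an adjusted p-value. Without a filter on low counts, edgeR called 4 of them (Ftl1, Txnip, Sesn2 and Tfrc) and 298 genes in all. Among 17 partners and regulators of NRF2, all tested, 5 had an unadjusted edgeR p-value under 0.05 with a higher value in KO and 1 with a lower one, where 4.54% and 3.38% of all genes tested did so. In 6 of the 17 every KO library lay above every WT library and in 1 below, where 7.46% and 6.97% of all genes tested did. The list's median log2 fold change was 0.048. The small MAF genes encode the obligate DNA-binding partners of NRF2. Maff, the most weakly expressed, had 0.495, 0.510 and 0.425 CPM in WT and 0.892, 1.28 and 0.692 CPM in KO, every KO library above every WT library (log2 fold change 0.99, SE 0.285, edgeR adjusted p = 0.576). Mafk had 7.17 ± 0.445 CPM in WT and 8.39 ± 0.470 in KO (log2 fold change 0.23, SE 0.0987, edgeR adjusted p = 0.622), again without overlap. Mafg had 71.5 ± 0.935 CPM in WT and 73.3, 96.6 and 76.1 CPM in KO libraries 1 to 3 (log2 fold change 0.20, edgeR adjusted p = 0.622), with KO library 2 highest. Bach2, a repressor that competes for the same partners, had 23.3 ± 2.39 CPM in WT and 27.6 ± 4.19 in KO, with overlap.

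Of 35 other NRF2 target genes 30 were tested. Of these, 2 were higher in KO at an unadjusted edgeR p-value under 0.05 and 0 lower, against 4.54% and 3.38% of all genes tested. The groups separated for 4 of the 30 with KO above and 1 with KO below, against 7.46% and 6.97% of all genes tested. The list's median log2 fold change was 0.041. Ftl1, the ferritin light chain that stores iron released from heme, had 52.6, 48.3 and 45.9 CPM in WT and 55.7, 54.3 and 66.4 CPM in KO (log2 fold change 0.26, SE 0.0796, edgeR adjusted p = 0.576). Every KO library lay above WT, with KO library 3 the highest, but ferritin has processed pseudogenes that can take its reads. Abcc4, an export pump, had 21.9 ± 0.544 CPM in WT and 24.3 ± 1.03 in KO (log2 fold change 0.15, edgeR adjusted p = 0.616), without overlap. KO library 3 held the highest value for 13 of the 30 genes (43.3%), where it did so for 18.7% of all genes tested. It also did so for 4 of the 10 described above, Keap1, Hmox1, Nqo1 and Cat. That library was singled out for its Hmox1 value, so Hmox1 is among the 4 by choice. In the other lists the share was 17.6% for the partners, 19.0% for the glutathione genes, 28.6% for the superoxide, peroxide and thioredoxin genes and 0 of 10 for the heme and iron genes. Above the NRF2 targets stood the marker lists of endothelial and mural cells (6 of 10) and microglia (5 of 10). Examples chosen after their values were seen are Slc7a11, the cystine importer, with 68.7 to 93.0 CPM elsewhere and 118 CPM in KO library 3, and Osgin1, with 0.274 to 0.577 CPM elsewhere and 0.885 CPM there.

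**Figure D4:**
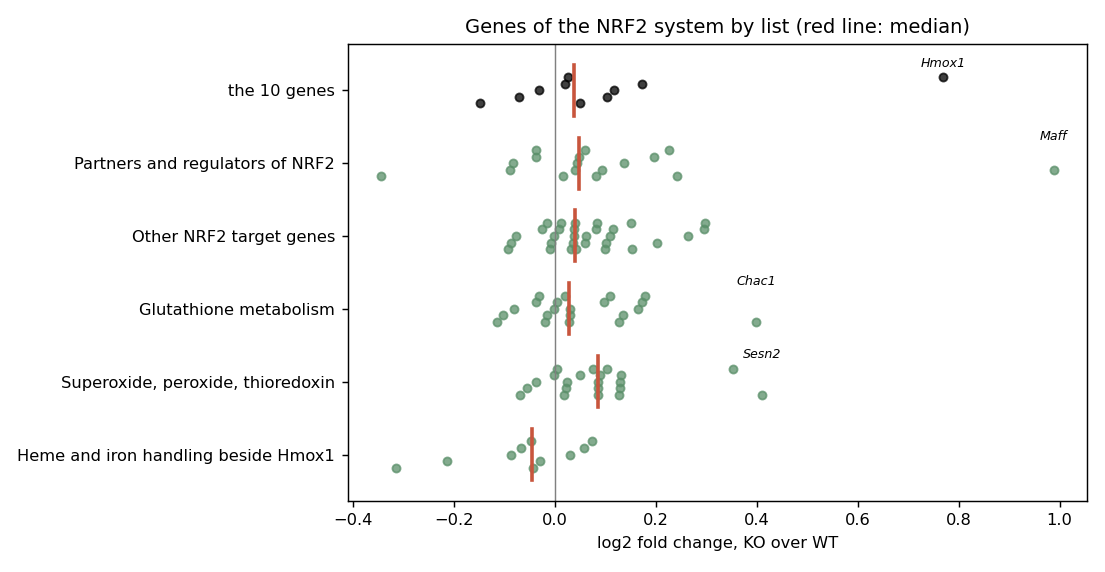
Log2 fold change, KO over WT (horizontal axis), of each tested gene in the 10 described and in 5 lists of other genes, with the median of each list as a red line and vertical position within a list only separating points. Hmox1 at 0.77 and Maff at 0.99 lie farthest out, and no gene shown passed the adjusted threshold in the main fit.

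All 21 glutathione genes were tested, with 2 higher in KO at an unadjusted edgeR p-value under 0.05 and 0 lower, against 4.54% and 3.38% of all genes tested. The groups separated for 2 with KO above and 2 with KO below, against 7.46% and 6.97% of all genes tested, and the median log2 fold change was 0.028. Those with the small p-values were Ggt7, of the gamma-glutamyltransferase family (80.8 ± 6.64 CPM in WT and 88.7 ± 0.887 in KO, edgeR adjusted p = 0.622), and Oplah, which opens oxoproline to glutamate (26.9 ± 2.63 and 30.5 ± 2.30 CPM, edgeR adjusted p = 0.628). Ggt7 did not overlap between the groups and Oplah did.

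Among the 21 superoxide, peroxide and thioredoxin genes, all tested, 4 were higher in KO at an unadjusted edgeR p-value under 0.05 and 0 lower, against 4.54% and 3.38% of all genes tested. In 6 every KO library lay above every WT library, against 7.46% of all genes tested, and the median log2 fold change was 0.086. Sesn2, a sestrin that restrains mTORC1 and is also a target of ATF4, had 9.34, 9.95 and 8.93 CPM in WT and 11.6, 12.3 and 13.6 CPM in KO (log2 fold change 0.41, SE 0.0927, edgeR adjusted p = 0.550). Park7, the redox-sensing protein DJ-1, had 46.1 ± 1.001 CPM in WT and 50.4 ± 0.848 in KO (log2 fold change 0.13, edgeR adjusted p = 0.600). Prdx2, the abundant neuronal peroxiredoxin, had 104 ± 1.99 and 112 ± 1.34 CPM (log2 fold change 0.10, edgeR adjusted p = 0.618). These 3 genes did not overlap between the groups, while Txnip, which binds thioredoxin, did (19.5 ± 4.01 and 24.98 ± 3.60 CPM, edgeR adjusted p = 0.600).

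The 10 heme and iron genes had a median log2 fold change of -0.045, with 0 higher and 1 lower in KO at an unadjusted edgeR p-value under 0.05, against 4.54% and 3.38% of all genes tested. That gene was Slc40a1, the iron exporter ferroportin and a known NRF2 target (log2 fold change -0.31, SE 0.114, edgeR adjusted p = 0.579). It had 16.05, 15.44 and 12.82 CPM in WT and 12.78, 10.07 and 12.78 CPM in KO. In 2 of the 10, Slc40a1 by a narrow margin and Ireb2, every KO library lay below every WT library. In 0 of the 10 KO lay above. Of all genes tested, 6.97% were separated with KO below and 7.46% with KO above. Ireb2, iron regulatory protein 2 and the list's highest gene by mean CPM over the 6 libraries, had 119 ± 1.17 CPM in WT and 112 ± 1.34 in KO, without overlap (log2 fold change -0.086, SE 0.0419, edgeR adjusted p = 0.637).

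The genes whose pattern over the 6 libraries was most like that of Nfe2l2 were Gtpbp1 (Pearson r = 0.994 of log2 CPM), Gm13944 (r = 0.989) and Nfkb1 (r = 0.988), as a description over 6 libraries that share their depth scaling. Of 17300 eligible genes, 133 had r above 0.9. None of the other 9 members was among them: Srxn1 was nearest at 0.632 and Sod2 farthest at -0.863. Nfe2l2 itself varied by 5.94% in WT and 4.45% in KO, where counting error is 4.19% and 4.08%. With a spread this near counting error, these correlations do not show shared regulation.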

How the data were processed

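Per the submitters' processing notes, reads were trimmed with cutadapt 1.9.1 and aligned with STAR 2.7.0f. The authors deposited raw read counts per gene, 1 table per library, with 3 strand columns and 4 leading rows of reads in no single gene, which were left out (57.7% to 60.2% of reads). The genome build and annotation are not given in the sources used here. The IDs are those of GENCODE M21, which supplied names, positions, exon lengths and GC content. The last column, with 94.6% to 94.8% of stranded counts, was used.

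In R 4.3.3, edgeR 4.0.16 filtered genes by filterByExpr, scaled by TMM and tested genotype alone in all 6 libraries by the quasi-likelihood test, with Benjamini-Hochberg adjustment. SE is the log2 fold change over the root of F, and 95% intervals use its moderated degrees of freedom. DESeq2 1.42.0 and limma-voom (limma 3.58.1) were alternatives. The fit was also run on counts simulated from its own means and dispersions, which does not test its assumptions on these libraries. Libraries of a group differed by more than sampling noise (chi-square per degree of freedom 4.08 to 8.69).

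The members and lists were chosen with earlier results of these data known. In each list the genes named have an unadjusted p-value under 0.05, at most 4 by smallest p-value, filled to 2 by abundance. Genes named outside this rule were chosen after their values were seen. The 3 genes most like Nfe2l2 have the highest r among genes with a mean of at least 1 CPM.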

Additional observations from a re-analysis of the deposited data

How the results depend on the processing

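Of the 10 genes, 0 passed the adjusted threshold in every alternative but the fit without a filter on low counts, where 1 did (Hmox1, log2 fold change 0.78). DESeq2 gave no adjusted p-value for Hmox1 and Nqo1, so it judged 8 of the 10. The fit without the filter called 298 genes in all, and 4 genes of the other lists (Ftl1, Txnip, Sesn2 and Tfrc). Over all genes DESeq2's Wald test called 25 and the replicate block 4. The replicate numbers give no sign of pairing (correlations of deviations 0.040, -0.031 and -0.058), and the replicate block with GC correction called 2. The replicate block called 0 of the 10 genes. Leaving out 1 library called 2 to 5 genes in all, the 5 without KO library 3, and 0 of the 10 genes or of the lists.

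Hmox1, the largest estimate, turned to -0.033 without KO library 3. Signs also turned for small estimates: Nfe2l2 -0.0117 (without WT library 3), Gsr -0.0187 (without WT library 2), Cat -0.00713, -0.0111 and -0.0116 (without WT library 3, KO library 1 or KO library 3), and Sod2 0.0157 (GC correction) and 0.0156 (replicate block with GC correction). The cause was not tested. The highest values with 1 library left out were 0.072 for Nfe2l2, 0.11 for Gsr, 1.05 for Hmox1 and 0.078 for Cat. Hmox1's adjusted p-value ranged from 6.48e-04 to 0.999. GC correction moved Keap1 to 0.034 and Srxn1 to 0.059. Gclm ranged from -0.18 to -0.10 and Gclc from -0.093 to -0.037. Total counts moved the median of all genes to -0.00991.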
